A study of Homo sapiens with 24 samples.

Results

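OE33 is an established human esophageal adenocarcinoma cell line, and the comparison described here sets cGAS KO cells against Cas9 control cells of this line, all treated with reversine. It rests on 6 of the 24 libraries of the series, which are 3 libraries of cGAS KO cells and 3 of Cas9 cells, 1 of each from batches 1, 2 and 3. The replicate numbers in the titles were taken as batches. The cGAS KO cells carried Cas9 and a guide RNA against CGAS, and the Cas9 control cells (genotype cGAS wild type in the labels) an empty Cas9 vector. Both were grown for 24 hours and then exposed to 500 nM reversine for 48 hours, which blocks MPS1, a kinase of the mitotic checkpoint (MPS1i), before poly(A) RNA was sequenced. The study worked with clones, and the labels do not name the clone behind each library, so each genotype is treated as 1 clone grown in 3 batches. A difference between the genotypes therefore cannot be told apart from a difference between the clones that has nothing to do with CGAS. The 6 OE33 libraries of the same genotypes and batches in DMSO, the solvent, share no library with this comparison, and were used to read the same genes a second time.

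cGAS is a sensor of double-stranded DNA in the cytosol. On binding DNA from micronuclei, mitochondria or viruses it makes the messenger 2′3′-cGAMP, which binds STING at the endoplasmic reticulum, and STING then activates the kinase TBK1, the factor IRF3 and NF-κB, which turn on type I interferon, interferon-stimulated genes and inflammatory cytokines. Inhibition of MPS1 makes cells leave mitosis with missegregated chromosomes, which can end up in micronuclei, so this treatment is used to engage cGAS in chromosomally unstable tumor cells. Because RNA levels follow gene dosage, a clone that gained or lost a chromosome segment shows many neighbouring genes shifted in 1 direction by a similar small amount, and genes were therefore also read in chromosome order.

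The guide RNA is shown because it places the edit in the gene. Its target lies at chr6:73451711-73451730 on the plus strand of GRCh38, where it had 1 exact match in the genome, in exon 1 and the coding sequence of CGAS, a gene on the minus strand. The capitals mark the PAM that follows the target.
CGAS guide: atccctccgtacgagaatggGGG

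CGAS (ENSG00000164430) had 40.7, 29.1 and 28.6 CPM (normalised read counts, scaled by library size and TMM factors) in the Cas9 libraries of batches 1, 2 and 3, and 2.32, 2.72 and 2.44 CPM in the cGAS KO libraries. The groups did not overlap, and every library had the CGAS level that its label calls for. The log2 difference, cGAS KO minus Cas9, was -3.70 (standard error 0.19, adjusted p = 7.64e-83 by edgeR's quasi-likelihood test). STING1, which encodes the receptor for 2′3′-cGAMP, had 4.35, 4.25 and 9.08 CPM in Cas9 cells and 1.59, 1.56 and 4.57 CPM in cGAS KO cells. It was lower in cGAS KO cells in each batch, by 1.27 on the log2 scale over the 3 batches (standard error 0.22), although the cGAS KO library of batch 3 lay within the range of the Cas9 libraries. In DMSO, CGAS had between 29.7 and 34.6 CPM in Cas9 cells, and 2.23, 15.3 and 2.27 CPM in cGAS KO cells. The library labelled cGAS KO DMSO replicate 2 thus stood apart, and values from DMSO are given with and without batch 2 where this matters.

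Total counts of the 6 reversine libraries were between 15561268 and 22162553. The epithelial markers EPCAM, CDH1, KRT8, KRT18 and KRT19 summed to between 15973 and 17611 CPM in Cas9 cells and between 16594 and 19232 CPM in cGAS KO cells, as a carcinoma line calls for. Of the fibroblast markers 3 of 6 were tested, with a sum of 1.31 to 2.04 CPM in Cas9 and 1.09 to 6.81 CPM in cGAS KO cells, and of the leukocyte markers 3 of 5, with 3.72 to 10.4 CPM and 4.78 to 11.7 CPM. Of these CD14 was called higher by edgeR and not by DESeq2, with a log2 difference of 0.92 (1.24 in DMSO, called there too), while CD79A (-0.39) and CSF1R (-0.65) were not called. The defining leukocyte genes PTPRC and CD3E did not pass the filter, and of the 4 endothelial markers 1 was tested, at up to 0.312 CPM. Mitochondrially encoded genes held between 1.38% and 2.31% of counts in batches 1 and 2. In batch 3 they held 8.94% in Cas9 and 6.78% in cGAS KO cells, so batch 3 stood apart in both genotypes. Without batch 3, 1027 genes were called higher and 710 lower, against 976 and 642 with it.

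Of 20426 genes tested, 976 (4.78%) were higher in cGAS KO than in Cas9 cells under reversine and 642 (3.14%) were lower, 1618 (7.92%) together, at an adjusted p of at most 0.01 by edgeR's quasi-likelihood test with the batch as a block. Such genes are referred to as called. With 2 residual degrees of freedom, edgeR took each gene's spread wholly from the other genes. For genes that vary more than most, the p-values and the standard errors given here are too small. DESeq2, which called 903 genes (4.42%), 581 higher and 322 lower, is therefore given beside the lists below. It called 893 of the 1618 in the same direction. Over all genes tested, the groups did not overlap for 3725 genes (18.2%), and for 1198 of the 1618 called genes (74.0%). The median log2 difference of all genes tested was -0.01.

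The DMSO libraries entered the filter on counts but not the test that called these genes. In them 1601 of the 1618 called genes (98.9%) differed in the same direction, and 1606 (99.3%) without batch 2. Over all genes tested this share was 71.7%. In DMSO 576 genes (2.82%) were called, and 484 of the 1618 (29.9%) were called there in the same direction. Across 12328 genes with a mean of at least 1 CPM, the log2 differences under reversine and in DMSO had a Pearson correlation of 0.85, and of 0.88 without DMSO batch 2. These genes are not independent, and the 2 readings share the clones. The test of the difference itself, an interaction of genotype and treatment in all 12 OE33 libraries, passed an adjusted p of 0.05 for 0 genes by edgeR's quasi-likelihood test, with 383 of 20426 genes (1.88%) at an unadjusted p under 0.05. That share is lower than p-values would give with no difference in any gene, so the test was conservative. The fit also held cGAS KO DMSO replicate 2, which stood apart. In a fit of 11 OE33 libraries without it, 0 genes passed as well. Because the test was conservative, a count of 0 does not show that no gene differs. DESeq2 was not run for this interaction.

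**Figure D1:**
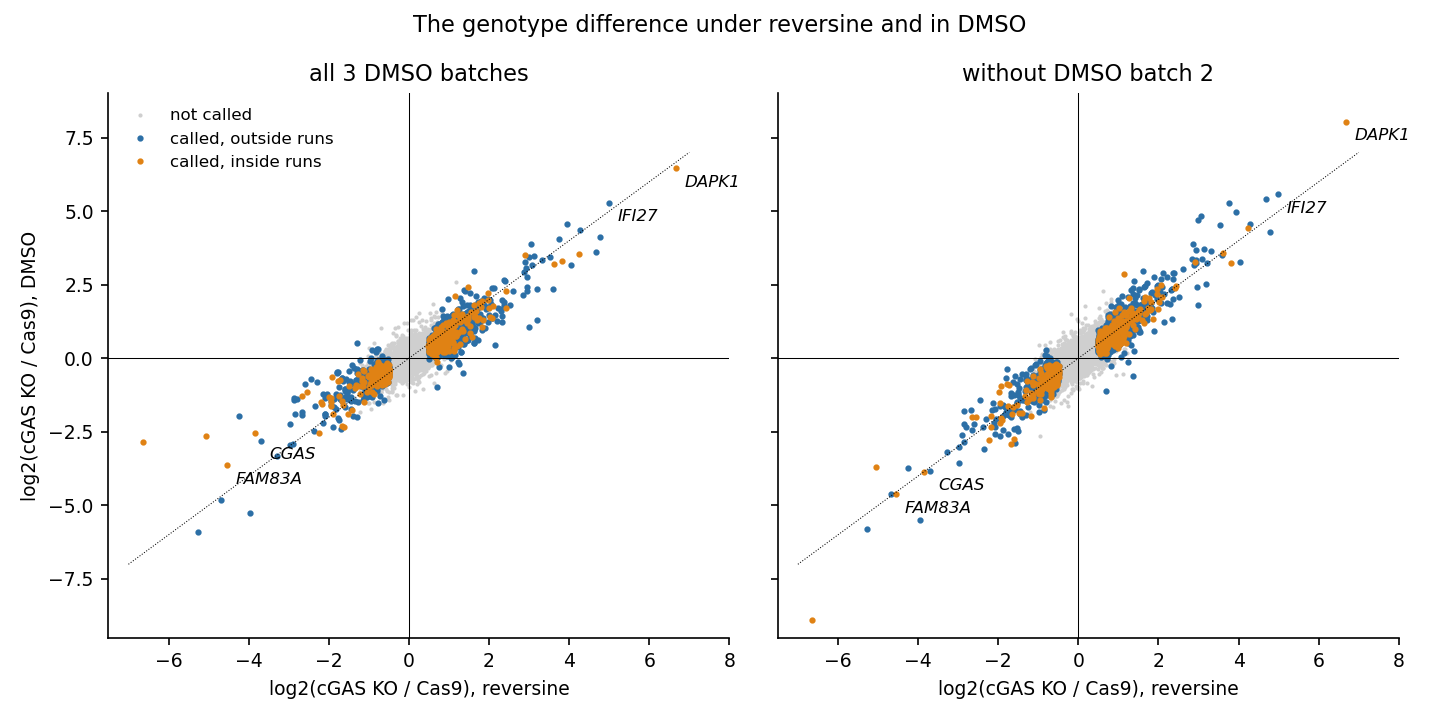
Log2 difference, cGAS KO minus Cas9, under reversine (x axis) and in DMSO (y axis), for genes with a mean of at least 1 CPM, with all DMSO batches on the left and without DMSO batch 2 on the right; the dotted line marks equal differences. Called genes lie along the dotted line inside and outside the runs of neighbouring genes, and DAPK1, IFI27, CGAS and FAM83A lie far out in both treatments.

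Read in chromosome order, the comparison held 32 runs, stretches of neighbouring protein-coding genes whose running median over 25 genes lay beyond 0.25 on the log2 scale in 1 direction. The runs held 2035 of the 11241 protein-coding genes with a mean of at least 1 CPM and lay on 10 chromosomes, 13 of them higher in cGAS KO cells and 19 lower. Inside runs 539 genes (26.5%) were called, and outside runs 866 of 9206 (9.41%). In the higher runs 301 of 953 genes were called higher and 8 lower, and in the lower runs 210 of 1082 were called lower and 20 higher. These libraries chose the runs, so these counts describe them and test nothing. Of the 1618 called genes of all kinds, 592 started inside a run and 1026 outside.

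**Figure D2:**
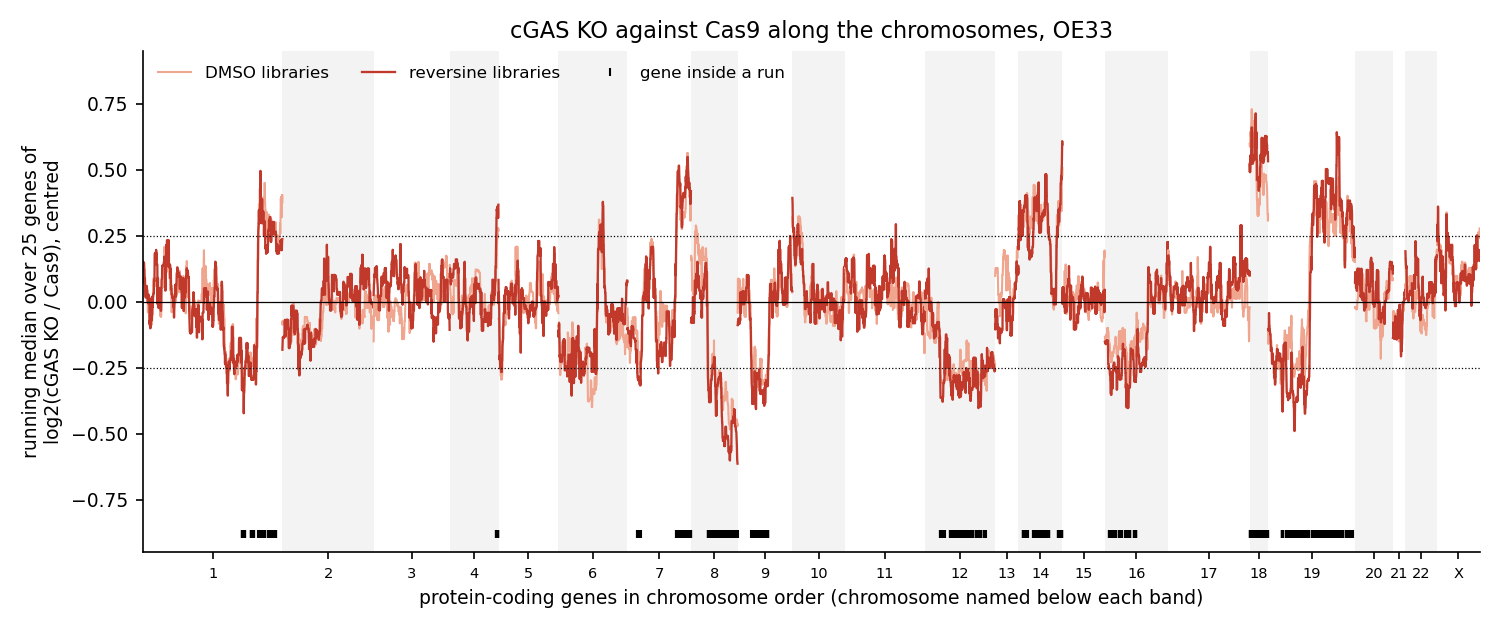
Running median over 25 protein-coding genes of the log2 difference between cGAS KO and Cas9 cells, in chromosome order, under reversine and in DMSO; dotted lines mark 0.25 and -0.25 and black ticks mark genes inside a run. Chromosome 18, distal 7q, 14 and 19q lie above 0.25 and 8q, 9q, 12, 16p and 19p below -0.25 under reversine, and the DMSO line follows most of these steps.

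The steepest rise spanned chromosome 18, from position 158383 to 80147523 of GRCh38. Of its 155 genes, 150 were higher in cGAS KO cells, with a median log2 difference of 0.54, which is 1.45-fold, and 76 were called higher and 0 lower. Among them were LIPG, which encodes endothelial lipase, with 52.9, 56.4 and 74.5 CPM in Cas9 and 159, 156 and 332 CPM in cGAS KO cells, and GATA6, a factor of the columnar lineage that is often amplified in esophageal adenocarcinoma, with 18.7, 15.2 and 12.3 CPM against 31.4, 24.7 and 32.3 CPM. SMAD7, an inhibitor of TGF-β signalling, TYMS, which makes thymidylate for DNA synthesis, RAB27B and TMX3 were also called higher on this chromosome.

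Distal 7q, from 127580618 to 158956747, held 124 genes with a median of 0.43 (1.35-fold), 40 called higher and 1 lower. On 19q, 4 runs with 317 genes had a median of 0.38 (1.31-fold), with 100 called higher and 1 lower. They hold AXL, a receptor tyrosine kinase, which had 55.2, 63.9 and 56.7 CPM in Cas9 and 202, 144 and 305 CPM in cGAS KO cells, and the ligands of T and NK cell receptors PVR and NECTIN2. On chromosome 14, 3 runs with 216 genes had a median of 0.36, with 54 called higher and 3 lower. Rises over fewer genes lay on distal 1q, with 121 genes and a median of 0.29, and at the end of 4q, with 20 genes and a median of 0.36.

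With runs pooled by chromosome, the deepest fall lay on 8q, where 2 runs from 47960185 to 145066685 held 232 genes with a median of -0.45 (0.733-fold), 77 called lower and 5 higher. MYC, the transcription factor often amplified in this cancer, lies there and had 337, 342 and 380 CPM in Cas9 against 195, 231 and 225 CPM in cGAS KO cells. Its log2 difference was -0.70, where the run it lies in had a median of -0.47. On 19p, 4 runs with 192 genes had a median of -0.36, the deepest of them, with 15 genes, -0.50, on chromosome 12, 4 runs with 297 genes had -0.33, on 9q, 1 run with 142 genes had -0.33, and on 16p, 5 runs with 135 genes had -0.31. Proximal to the rise on 1q, 2 runs with 55 genes had a median of -0.30, and on 7p, 1 run with 29 genes had -0.28.

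Each of the 32 runs had the same sign in each of the 3 reversine batches, but these batches chose the runs, so this tests nothing. Each run also had the same sign in DMSO. The level of a set of runs in a library was taken as the median over its genes of the log2 ratio to the mean of the 6 Cas9 libraries. Over the 13 sets, by chromosome and direction, this level was between -0.11 and 0.10 in the 6 Cas9 libraries. For chromosome 18 it was between 0.56 and 0.61 in the cGAS KO reversine libraries, and for 8q between -0.47 and -0.41. In DMSO the 2 cGAS KO libraries of batches 1 and 3 had between 0.56 and 0.62 for chromosome 18 and between -0.44 and -0.43 for 8q.

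The library labelled cGAS KO DMSO replicate 2 had the level of the other cGAS KO libraries in some sets and not in others. It had 0.37 for distal 7q, 0.34 for chromosome 14 and 0.28 for distal 1q, like the others. It had 0.26 for chromosome 18 and -0.23 for 8q, between the genotypes, 0.02 for 4q, and 0.07 for 16p and 0.25 for 19p, where the other cGAS KO libraries were below 0. Paired with the Cas9 DMSO library of batch 2, it gave 9 of the 32 runs the opposite sign, against 0 in batches 1 and 3. Of 462 genes that were called under reversine with a log2 difference of at least 1 in size and a mean of at least 1 CPM, 189 (40.9%) had a level in this library nearer to the mean of the cGAS KO than of the Cas9 reversine libraries. That share was 87.0% and 90.0% in the cGAS KO DMSO libraries of batches 1 and 3, and between 7.36% and 13.6% in the Cas9 DMSO libraries.

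**Figure D3:**
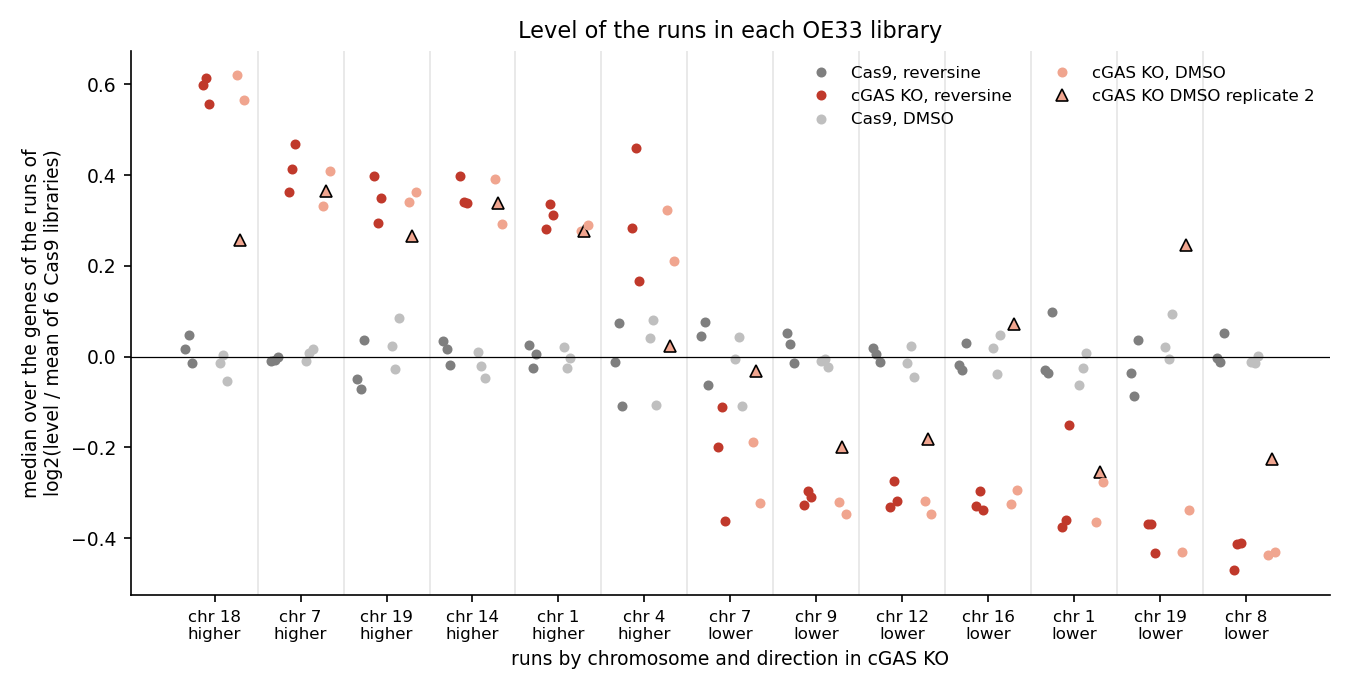
Level of the runs in each OE33 library, by chromosome and direction, as the median over genes of the log2 ratio to the mean of the 6 Cas9 libraries; each point is a library and the outlined triangle is cGAS KO DMSO replicate 2. The Cas9 libraries lie between -0.11 and 0.10, and the triangle lies at 0.26 for chromosome 18 and at 0.25 for 19p. The cGAS KO reversine libraries lie apart from the Cas9 libraries in all 13 sets, by the least on 7p, but the reversine libraries chose the runs.

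SK-GT-4, another esophageal adenocarcinoma line of the series with its own Cas9 and cGAS KO clones, was read over the same genes under reversine. Of the 13 sets, 1 had a median beyond 0.25 in the direction seen in OE33. It was distal 7q, with a median of 0.59 and 113 of 124 genes higher in the SK-GT-4 cGAS KO cells. The others had medians between -0.19 and 0.31, among them 0.01 for chromosome 18, -0.11 for 8q, and 0.31 for the 1q genes that were lower in OE33. Some single genes named in this report were read there too. CGAS was called lower (log2 difference -2.62) and MMP1 higher (2.57). IFI27 (0.67), IFITM1 (-0.12), CXCL8 (-0.41), DDIT4 (-0.59) and DAPK1 (0.79) were not called. IFI27 had at most 1.90 CPM and IFITM1 at most 0.854 CPM in any of these SK-GT-4 libraries.

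Within the runs some genes differed far more than their neighbours. FAM83A, an adaptor of growth factor signalling on 8q, had 360, 313 and 293 CPM in Cas9 and 18.9, 13 and 10.5 CPM in cGAS KO cells, a log2 difference of -4.54 (standard error 0.17), where the median of its run was -0.47. EPHB6, a receptor of the ephrin family on distal 7q, had 1.27, 6.76 and 1.83 CPM in Cas9 and 48.8, 70.1 and 40.2 CPM in cGAS KO cells, a difference of 4.24. TMCC3 on chromosome 12 fell from 28.7, 21.7 and 18.8 CPM to 1.96, 1.11 and 1.77 CPM. None of these groups overlapped. Whether reads were counted by strand is not given in the sources used here, so reads of FAM83A and of its antisense gene FAM83A-AS1 cannot be told apart. In DMSO the differences were -3.63 for FAM83A, 3.55 for EPHB6 and -2.55 for TMCC3, and without batch 2 they were -4.62, 4.41 and -3.86.

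Other genes went against the run they lie in. DAPK1, which encodes a death-associated protein kinase, lies in the lower run of 9q and had 0, 3 and 2 counts in the Cas9 libraries against 203, 210 and 191 counts in the cGAS KO libraries. Against the floor of 3 counts per library it was at least 59.9-fold higher in cGAS KO cells. In DMSO it had between 0 and 0.201 CPM in Cas9 and between 7.40 and 8.20 CPM in cGAS KO cells, replicate 2 included. TSPAN8, a tetraspanin of intestinal epithelium on chromosome 12, was called higher with a log2 difference of 3.81, and EGLN3, an oxygen-sensing hydroxylase on chromosome 14, was called lower with -1.64, both in runs of the opposite direction.

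The Hallmark IFN-α response, a list of genes that type I interferon turns on, had 97 members tested. Of these, 17 were called higher and 6 lower in cGAS KO cells, and 74 were not called (11 higher and 3 lower by DESeq2). Over all genes tested, 4.78% were called higher and 3.14% lower, and over protein-coding genes with a mean of at least 1 CPM, 12.5% were called in either direction, and the counts of this and the following lists are to be read beside these shares. The median of the list was 0.15, against -0.01 for all genes. By batch its median was 0.05, -0.06 and 0.40, so the list as a whole was higher in batch 3, the batch with the high mitochondrial share, and not in batch 2. Without batch 1, 20 members were called higher and 2 lower, without batch 2, 11 and 2, and without batch 3, 12 and 11. In DMSO its median was 0.32, with 18 called higher and 1 lower.

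IFI27, a mitochondrial protein induced by interferon, led the list. It had 9.68, 5.88 and 13.5 CPM in Cas9 and 399, 152 and 395 CPM in cGAS KO cells. The groups lay far apart in every batch, and the log2 difference was 4.99 (standard error 0.18, adjusted p = 1.49e-169 by edgeR's quasi-likelihood test), the highest of the protein-coding genes that were called outside the runs with at least 5 CPM in the higher group. In DMSO it had between 4.03 and 10.2 CPM in Cas9 and 447, 104 and 465 CPM in cGAS KO cells. IFITM1, a membrane protein that blocks virus entry, had 0.592, 0 and 1.40 CPM in Cas9 and 3.73, 0.623 and 46.8 CPM in cGAS KO cells, so most of its signal came from batch 3 and the groups overlapped. Reads of the IFITM genes can be shared between these close relatives, and how such reads were counted is not given in the sources used here.

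MX1, an antiviral GTPase, had 19.1, 12.6 and 19.8 CPM in Cas9 and 35.3, 19.7 and 88.6 CPM in cGAS KO cells, a log2 difference of 1.24. IRF7, the factor that amplifies interferon transcription, had 18.6, 16.9 and 20.4 CPM against 42.3, 17.2 and 58.9 CPM. In batch 2 the cGAS KO library lay within the range of the Cas9 libraries for MX1 and IRF7, and in batch 3 both were highest. EPSTI1, IFI44L, IFITM3, CMPK2, USP18, BST2, DDX60, HELZ2, PARP9, RSAD2 and TDRD7, most of them with antiviral or regulatory roles in this response, PROCR and CD74 were called higher as well. BST2, which tethers virus particles to the cell, lies in a lower run of 19p and was nevertheless higher. By DESeq2 IFI44L, DDX60, HELZ2, PARP9, RSAD2 and TDRD7 were not called.

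The called members that were lower were TRAFD1, GBP4, DHX58, CASP1, TXNIP and RIPK2. TRAFD1, a negative regulator of innate signalling, had 82.7, 114 and 93.1 CPM in Cas9 and 46.9, 58.2 and 58.5 CPM in cGAS KO cells, and lies in a lower run of chromosome 12. DHX58, which encodes the RNA sensor LGP2, had between 1.38 and 3.06 CPM in Cas9 and between 0.312 and 1.14 CPM in cGAS KO cells. GBP4 and TXNIP were lower in batches 1 and 2 and not in batch 3. Of the other members, ISG15 (log2 difference 0.33), IFIT3 (0.39) and OAS1 (0.19) were not called.

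Interferon acts on such genes through the interferon-stimulated response element. Its letters GAAANNGAAA, searched on both strands from 250 bases before to 50 after each gene's start in the RefSeq promoters of GRCh38.p14, were in 10 of the 15 called higher members with a promoter sequence (66.7%), in 32 of 61 that were not called (52.5%), in 1 of 2 called lower, and in 510 of 12699 of all genes tested (4.02%). Whether these shares differ was not tested. A match describes these letters and not a site in use. The windows below are those of 6 called members, with the match in capitals; TTTCNNTTTC is the same motif read on the other strand.
IFI27, chr14:94110618-94110647 (+): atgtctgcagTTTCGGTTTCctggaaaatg
IFITM1, chr11:313990-314019 (+): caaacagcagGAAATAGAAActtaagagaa
EPSTI1, chr13:42992272-42992301 (-): ctgattctgaGAAACCGAAActcagctgtt
IFI44L, chr1:78620274-78620303 (+): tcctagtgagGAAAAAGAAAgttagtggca
BST2, chr19:17405741-17405770 (-): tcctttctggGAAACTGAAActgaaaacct
RSAD2, chr2:6877622-6877651 (+): ctgtttcaacTTTCAGTTTCacatgtggaa

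The study's INF genes are CXCL8, CXCL1, CXCL2 and IL6, and its IFN genes are IFIT2, CCL5 and CXCL10. Of these 7, CXCL8 was called, higher in cGAS KO cells, and 0 were called lower. For CXCL8, CXCL2, IL6 and IFIT2 the study reported a cGAS-dependent rise on MPS1i over DMSO, by RT-qPCR in several clones. It also reported a smaller MPS1i-induced secretion of IL-8 in cGAS KO cells. The levels under reversine given here are another measure and do not test that rise. CXCL8, which encodes the neutrophil chemoattractant IL-8, had 41.4, 24.5 and 53.9 CPM in Cas9 and 64.6, 95.1 and 147 CPM in cGAS KO cells, and the groups did not overlap. Its log2 difference was 1.34 (standard error 0.15) under reversine and 1.77 in DMSO, or 1.20 there without batch 2, with an unadjusted interaction p of 0.65 by edgeR's quasi-likelihood test. IFIT2, an RNA-binding protein induced by IRF3 and interferon, had 26.6, 26.0 and 28.9 CPM against 20.1, 33.0 and 67.0 CPM, and was lower in batch 1 and higher in batches 2 and 3. Its log2 difference of 0.39 was not called.

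CXCL1 had 15, 4.25 and 17.5 CPM in Cas9 and 9.74, 10.3 and 20.6 CPM in cGAS KO cells, and CXCL2 had 11.2, 4.07 and 10.8 CPM against 10.9, 6.46 and 14.4 CPM, with overlapping groups. CCL5 had 1.78, 0.563 and 1.18 CPM against 0.728, 0.178 and 4.16 CPM, lower in batches 1 and 2 and higher in batch 3. IL6 had at most 1.14 CPM and CXCL10 at most 0.182 CPM in any of the 6 libraries, and neither was called, with log2 differences of 1.24 (standard error 0.63) for IL6 and 0.04 (standard error 1.46) for CXCL10. Of the 6 CXCR1/2 ligands tested, which draw neutrophils and other myeloid cells, CXCL8 alone was called. The median of the ligands was 0.28, and the other members, CXCL3, CXCL6 and PPBP included, had log2 differences between -0.22 and 0.59. Of 9 chemokines that attract T cells and monocytes, 0 were called by either tool.

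Of 17 tested genes of the cGAS-STING pathway and its regulators, CGAS and STING1 were called lower, and IRF7, LRRC8C and LRRC8A higher. LRRC8A and LRRC8C are subunits of the volume-regulated anion channel, through which cGAMP can enter cells. LRRC8C had 12, 17.3 and 14.1 CPM in Cas9 and 27.0, 25.9 and 25.1 CPM in cGAS KO cells. TBK1 (log2 difference -0.23) and IRF3 (0.33), which act below STING, were not called and lie in runs of the same direction. Of 18 genes of MHC class I presentation, TAP2, a subunit of the peptide transporter, was called lower and 0 were called higher. Of 14 NF-κB factors and feedback genes, REL and MAP3K14 were called lower by edgeR and 0 by DESeq2. Of 14 tumor-expressed checkpoint genes, NECTIN2, PVR and VSIR were called higher, and CD274 (0.12), which encodes PD-L1, was not called. NECTIN2, with 77.6, 57.4 and 113 CPM in Cas9 and 113, 108 and 289 CPM in cGAS KO cells, and PVR lie in the same 19q run.

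HIF factors turn on genes of the response to low oxygen. Of 24 tested members of a list of these genes, added after values had been seen, 13 were called lower and 0 higher (10 and 0 by DESeq2) and 11 were not called, with a median of -0.53, and 1 of the 24 lay above 0. The median was -0.73, -0.56 and -0.35 in batches 1, 2 and 3 and -0.54 in DMSO. NDRG1, a stress-responsive gene, had 315, 588 and 334 CPM in Cas9 and 60.3, 172 and 114 CPM in cGAS KO cells. It lies in the lower run of 8q, whose median was -0.47, while its own log2 difference was -1.90.

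VEGFA, the growth factor of blood vessels, lies in no run and had 132, 124 and 129 CPM in Cas9 against 63.4, 52.7 and 101 CPM in cGAS KO cells. The glucose transporter gene SLC2A3 had 27.6, 31.1 and 58.1 CPM against 5.46, 4.85 and 32.3 CPM. CA9, the carbonic anhydrase used as a marker of hypoxia, had 2.16, 4.0 and 4.89 CPM against 0, 0.0445 and 1.46 CPM. The glycolytic genes LDHA (-0.60) and ALDOA (-0.69) were called lower too, as were PDK1 (-0.68), CA12, P4HA1, KDM3A and ADM. By DESeq2 CA9, KDM3A and ADM were not called. Among the members called by neither tool were HK2 (-0.45), SLC2A1 (-0.25), PGK1 (-0.23), PFKFB3 (-0.18), ENO1 (-0.11) and PFKFB4 (0.24). VEGFA, CA9, ALDOA and PDK1 did not overlap between groups, and SLC2A3 did.

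DDIT4, an inhibitor of mTOR that hypoxia and ATF4 both induce, had 51.1, 73.5 and 59.7 CPM in Cas9 and 9.24, 15.2 and 20.3 CPM in cGAS KO cells, a log2 difference of -2.09 (standard error 0.16). Of 15 genes of the ATF4 stress response, DDIT4, NUPR1, VLDLR, ATF3 and PSAT1 were called lower and 0 higher (4 and 0 by DESeq2), with a median of -0.44. By batch the median was -0.52, -0.39 and -0.08, and in DMSO it was -0.19. The ATF4 targets ASNS (-0.57), CHAC1 (-0.44) and DDIT3 (-0.46) were not called. In the aryl hydrocarbon receptor response, in which a ligand-bound factor turns on enzymes of xenobiotic metabolism, CYP1A1 (30.5, 16.1 and 48.9 CPM against 13.5, 6.23 and 19.2 CPM) and AHRR were called lower while CYP1B1 (7.44, 5.69 and 7.15 CPM against 19.3, 11.4 and 21.2 CPM) and ALDH3A1 were called higher, of 7 tested (1 lower and 2 higher by DESeq2). Targets of the same receptor thus differed in opposite directions.

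Of 18 targets of NRF2, the factor of the oxidative stress response, 5 were called higher and 0 lower (4 and 0 by DESeq2), among them AKR1C1, AKR1C2, AKR1C3 and AKR1B10, with a median of 0.30. AKR1C3 had 6.51, 30.0 and 7.26 CPM in Cas9 and 35.7, 85.3 and 13.6 CPM in cGAS KO cells, higher in each batch with overlapping groups. The AKR1C genes are close relatives and neighbours on chromosome 10, so their reads can be shared. AKR1B10 lies in the higher run of distal 7q. NQO1 (0.26), HMOX1 (0.33), GCLM (0.18) and SRXN1 (0.12), the usual markers of NRF2 activity, were not called.

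Of 17 tested genes of TGF-β and BMP signalling, 8 were called higher and 1 lower (7 and 0 by DESeq2), and 8 were not called. The median was 0.58, and 7 of the 17 lie in runs. In DMSO the median was 0.26, with 1 called higher and 0 lower, and without DMSO batch 2 it was 0.48. Among the ligands, TGFB2 had 10.2, 10.9 and 15.5 CPM in Cas9 and 20.1, 27.5 and 43.6 CPM in cGAS KO cells, TGFB1 had 92.0, 76.2 and 109 CPM against 139, 129 and 189 CPM, and BMP4 had 18, 37.8 and 22.2 CPM against 44.1, 59.4 and 54.6 CPM. The groups did not overlap for any of these 3 ligands, and the genes lie in higher runs of 1q, 19q and 14. Of the receptors, TGFBR2 (0.70) was called higher and TGFBR1 (-0.64), in the lower run of 9q, was called lower. Among the targets, ID2 (0.74), ID1 (0.66) and ID3 (0.67), which lie outside the runs, and SMAD7 (0.79) on chromosome 18 were called higher.

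Of 20 targets of YAP and TAZ, the factors of the Hippo pathway, in a list that was also added after values had been seen, 6 were called higher and 1 lower (4 and 1 by DESeq2), with a median of 0.40 and batch medians of 0.01, 0.36 and 0.78. Among the called members 3 lie in runs, AXL, TGFB2 and NUAK2, each in a higher run. ANKRD1, a muscle ankyrin repeat protein and a defining target, had 15, 4.38 and 12.4 CPM in Cas9 and 66.8, 64.6 and 100.4 CPM in cGAS KO cells. CCN1 (0.52) was called by edgeR and not by DESeq2, and CCN2 (0.43), the other defining target of this family, by neither. IGFBP3, which binds insulin-like growth factors, was the member called lower, with 1044, 968 and 2092 CPM against 271, 275 and 786 CPM. Of 13 mesenchymal genes, 4 were called higher, among them THBS1 (62.7, 68.5 and 65.6 CPM against 227, 207 and 355 CPM), AXL and TGFBI, and 1 lower, ITGA5, in a lower run of chromosome 12. Of 14 epithelial genes, CLDN3 was called higher. Of 11 Notch genes, the ligands JAG1 and JAG2 and the target HES1 were called higher, and of 12 Wnt genes RNF43 and NOTUM, of which HES1 and NOTUM were not called by DESeq2.

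Genes of the columnar and intestinal lineage, which Barrett's esophagus and its adenocarcinoma express, differed in both directions, with 6 called higher and 3 lower of 26 tested (6 and 2 by DESeq2) and a median of -0.09. The stomach genes ANXA10, with 34.3, 71.0 and 37.5 CPM in Cas9 and 103, 121 and 65.7 CPM in cGAS KO cells, and CLDN18, the factors FOXA2 and GATA6, TSPAN8 and CEACAM6 were higher. CEACAM5, the neighbour of CEACAM6 on 19q and a tumor antigen, had 8.49, 10.6 and 16.3 CPM against 2.00, 7.84 and 7.17 CPM and was lower, while CEACAM6 had 21.4, 44.4 and 35.3 CPM against 42.8, 99.0 and 86.3 CPM. TFF2, a stomach peptide, had 10, 9 and 19 counts in Cas9 and 0 counts in each cGAS KO library, and was at least 4.71-fold lower. OLFM4, a gene of intestinal stem cells, was called lower by edgeR. CDX2 (-0.46), the intestinal master factor, was not called. Of 15 keratins, KRT13 and KRT15 were called lower. Of 10 imprinted genes, MEST, PEG10, CDKN1C and SGCE were called higher and PLAGL1 and H19 lower (4 and 1 by DESeq2). PLAGL1 had 17.5, 20.3 and 17.5 CPM in Cas9 and 3.69, 3.38 and 6.29 CPM in cGAS KO cells, with no overlap.

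Other lists follow. In several of them no member was called, and in others the share called was above the 7.92% over all genes tested. Over protein-coding genes with a mean of at least 1 CPM that share was 12.5%. Heat shock (9.09%), DNA replication (11.8%) and MHC class II genes (12.5%) lay at or below it. Of 17 genes of the spindle checkpoint and mitosis, 0 were called by either tool, and TTK, which encodes MPS1 itself, had 41.2, 35.9 and 35.6 CPM in Cas9 and 42.8, 38.2 and 42.8 CPM in cGAS KO cells. Of 11 p53 targets, 0 were called by either tool, with CDKN1A at a log2 difference of 0.46. In the unfolded protein response 0 of 13 were called by edgeR and 1 by DESeq2, and of 10 ERBB receptors and ligands and 7 metallothioneins 0 were called by either tool. In DNA replication TYMS was called higher and MCM4 lower, of 17, and they lie in runs of these directions, and by DESeq2 MCM4 alone was called. HSPB1 of 11 heat shock genes was called lower. Of 18 interleukins and cytokines IL18 and IL11 were called higher and IL1RN lower, and by DESeq2 IL18 alone. Of 13 AP-1 and immediate early genes JUN was called higher and ATF3 lower, and by DESeq2 JUN alone. Of 8 genes of MHC class II presentation CD74 was called higher by both tools. PRAME, the 1 cancer-testis antigen that was tested, was called higher, with a log2 difference of 1.53. Of 15 genes often amplified in esophageal adenocarcinoma, FGFR2 and GATA6 were called higher and VEGFA, CDK6 and MYC lower.

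Outside the runs, IFI27 was followed by PUDP, IFITM1, ONECUT3, TNS4, PADI2, MMP1, MCTP1, ANKRD1, DRD1, MAOA and P3H3 in the size of the rise. PUDP, a phosphatase gene of the X chromosome, had 0.211, 0.375 and 0.484 CPM in Cas9 and 10.01, 10.9 and 8.37 CPM in cGAS KO cells, and MMP1, a collagenase, had 33.9, 35.5 and 103 CPM against 353, 347 and 611 CPM. ONECUT3, a transcription factor, had 1.14, 0.688 and 0.806 CPM against 12.9, 13 and 19.1 CPM. In all 3 the groups lay far apart, and in DMSO the log2 differences were 4.12 for PUDP, 3.16 for MMP1 and 3.17 for ONECUT3. SYT13, a synaptotagmin, had 14.9, 18.5 and 9.24 CPM against 98.1, 101 and 98.3 CPM, but 6.98 CPM in cGAS KO DMSO replicate 2, where the other cGAS KO DMSO libraries had 106 and 91.1 CPM. MAOA, a monoamine oxidase, lay likewise at 0.884 CPM in that library against 11.9 and 8.74 CPM. FGFR2, a growth factor receptor often amplified in this cancer, had 7.23, 10.7 and 7.95 CPM in Cas9 and 21.8, 30.8 and 42.2 CPM in cGAS KO cells.

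Outside the runs the largest falls besides CGAS were those of ZNF704, FPR3, ABCA12, SERPINA1, LCP1, PROM2, ARL14EPL, ALPP, DDIT4, PLAGL1 and SAA1. ZNF704, a zinc finger gene, had 7.90, 4.57 and 6.45 CPM in Cas9 and 0.0455, 0.0445 and 0.416 CPM in cGAS KO cells, and FPR3, a formyl peptide receptor, had 9.76, 5.38 and 10.2 CPM against 0.0455, 0.0445 and 1.04 CPM. Each was lower in DMSO as well, with log2 differences of -5.91 and -4.81. SERPINA1, which encodes α1-antitrypsin, had 19.7, 8.45 and 19.9 CPM against 2.14, 0.534 and 6.55 CPM, and SAA1, an acute phase protein, had 15.9, 5.38 and 14.4 CPM against 2.96, 1.02 and 5.98 CPM. The groups did not overlap for ZNF704, FPR3 and SERPINA1, and overlapped for SAA1. LCP1, an actin-bundling protein, had 15.3, 7.20 and 12.5 CPM against 1.73, 1.96 and 1.61 CPM.

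At most 3 counts in every library of 1 genotype were found for 28 called genes, 13 at this floor in Cas9 and 15 in cGAS KO cells. After DAPK1, the zinc finger gene ZNF558 on 19p had the largest bound, with 23, 40 and 59 counts in Cas9 and 0, 1 and 0 in cGAS KO cells, at least 15.6-fold lower. In DMSO it had 0 CPM in the cGAS KO libraries of batches 1 and 3 and 1.91 CPM in that of batch 2, against 2.11 to 3.46 CPM in Cas9 cells. IRAK3, an inhibitor of Toll-like receptor signalling on chromosome 12, had 1, 0 and 1 counts in Cas9 and 31, 15 and 28 in cGAS KO cells, at least 7.43-fold higher. It too had the Cas9 level in cGAS KO DMSO replicate 2, with 0.0465 CPM against 1.44 and 1.56 CPM in the others. The amino acid transporter gene SLC38A4 (at least 8.71-fold lower), SIRPG (at least 7.38-fold lower), CST7 (at least 7.69-fold lower), the growth factor gene NRG1 (at least 5.71-fold higher) and TMEM98 (at least 5.50-fold higher) followed. SIRPG had 28, 3 and 33 counts and CST7 26, 3 and 37 counts in Cas9. In batch 2 both genotypes were thus at the floor for these genes, and their bounds rest on batches 1 and 3. NSFP1, a pseudogene whose reads can come from its parent gene NSF, owed its Cas9 level of 5, 57 and 11 counts mostly to batch 2, and DNAH12, with 10, 18 and 58 counts in cGAS KO cells, differed less in DMSO.

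In 7 places outside the runs 3 or more neighbouring genes were called in the same direction. MAOA, MAOB, NDP and EFHC2 on the X chromosome were higher, with log2 differences between 1.15 and 2.93, and SHROOM2, WWC3 and CLCN4, also on the X chromosome, between 0.67 and 1.05. KRT34, KRT13 and KRT15 on chromosome 17 were lower, with log2 differences between -1.96 and -0.68. PCDHA12, PCDHAC1 and PCDHAC2 on chromosome 5 share exons, so their reads cannot be fully told apart. The others were AKR1C1 to AKR1C3 and 2 groups on chromosome 14, with DAD1, ABHD4 and OXA1L and with SRP54, FAM177A1 and PPP2R3C, next to the higher runs there.

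Among the called genes, the 6 with the smallest interaction p were read for a difference between reversine and DMSO, although 0 of them passed the adjustment over all genes by edgeR's quasi-likelihood test. FBXO32, a ubiquitin ligase gene of 8q, had 25.1, 23.5 and 26.7 CPM in Cas9 and 5.83, 4.67 and 10.2 CPM in cGAS KO cells under reversine. In DMSO it had 16.7, 6.90 and 11.8 CPM against 6.79, 7.12 and 7.55 CPM, and the log2 differences were -1.92 and -0.64. The unadjusted interaction p was 0.00194 by edgeR's quasi-likelihood test. C15orf48 differed by -1.30 under reversine and -0.41 in DMSO. SPCS2P4, a pseudogene, was called higher under reversine (0.70) and lower in DMSO (-0.99), with an unadjusted interaction p of 0.000865. NSFP1, RGPD6 and DNAH12, the others of the 6 smallest, had under 5 CPM in every library.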

How the data were processed

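Poly(A) RNA of 24 libraries was sequenced, and the 6 OE33 libraries in reversine were compared, with the 6 in DMSO beside them. The deposited values were raw counts per gene, which per the labels and the study's methods the authors obtained by aligning paired reads with HISAT2 2.0.5 to GRCh38 and counting them with featureCounts 1.5.0. The annotation release and the strand setting are not given in the sources used here. Of the sample columns, 0 had no sample in the labels.

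Of 58735 genes, the 20426 with a total of at least 5 counts and a count above 0 in at least 4 of the 12 OE33 libraries were tested. Counts were fitted with edgeR 4.0.16 (R 4.3.3, TMM factors, quasi-likelihood test) with the batch as a block and Benjamini-Hochberg adjustment, and genes with an adjusted p up to 0.01 were called. The authors removed batch effects with ComBat and tested with DESeq2, which was run here (version 1.42.0) on the uncorrected counts with batch as a term. CPM were computed with the TMM factors. The number of a library is the replicate number in its title. It was taken as the batch because the study paired libraries by batch number. Libraries of the same batch deviated together from their group means, with correlations of 0.33, 0.62 and 0.67 over 12328 genes, against at most 0.27 between batches, so the block was kept. No pair of the reversine libraries had identical counts in more than 0.591% of the more highly counted genes. The DMSO libraries were not checked in this way. The labels do not say that the batches came from separate clones, so the p-values do not cover the spread between clones. In the main fit they rest on the spread between these libraries as shared over genes, not on each gene's own.

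Runs were found over protein-coding genes with a mean of at least 1 CPM after subtracting their median of 0.01, as stretches of at least 15 genes. Genes were named by these rules: CGAS and STING1, the study's short lists, the 12 largest changes in each direction outside runs with at least 5 CPM in the higher group, the 5 smallest p in each direction, the 3 smallest p in each run, up to 10 genes at the floor of 3 counts, and up to 4 called members of each other list. Other genes are members of a list given in full or in part, and were chosen after their values were seen. The comparison, the runs and the lists were chosen with earlier results of these data known, and the lists of hypoxia and of YAP and TAZ targets were added after values had been seen. The scripts were tested on simulated counts. Alternatives were another filter, scaling, tool, threshold and set of libraries, and each batch left out. The search for runs without each batch, the reading in SK-GT-4, the fit of 11 OE33 libraries, DESeq2 outside the runs and the IFN-α counts without each batch were added after the data had been seen. Some called genes are not reported here.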

Additional observations from a re-analysis of the deposited data

How the results depend on the processing

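Against 976 genes higher and 642 lower, 385 and 195 were called with all 12 OE33 libraries in 1 fit, 498 and 269 with edgeR's filter on low counts, 581 and 322 with DESeq2, and 1466 and 1126 at an adjusted p of 0.05. Without the replicate block, 45 and 24 were called. Leaving out 1 batch gave between 373 and 1027 higher and between 182 and 710 lower, the lowest without batch 2 and the highest without batch 3. In DMSO, 957 genes were called without batch 2, against 576. At a running median beyond 0.35 the runs held 776 genes, against 2035. Of 5 genes of the study's short lists, none of them called, the sign turned. CCL5 had -0.27 with DESeq2 and between -1.37 and 0.95 with 1 batch left out, CXCL1 between -0.17 and 0.68, CXCL3 between -0.55 and 0.048, IFIT2 between -0.023 and 0.79, and CXCL10 between -0.51 and 0.88. CXCL10 also had -0.042 with 12 libraries and -0.050 with 11. The cause of these changes was not tested. Of the 194 named genes, 48 stayed on their side of the threshold without the replicate block, 123 with 12 libraries, 160 with DESeq2 (of 193 with a value), and 131 without batch 2. No copy number was measured, so gene dosage in the runs was not tested, and genes under about 1 CPM have wide errors.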
